A study of Mus musculus with 6 samples.

Results

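The simple-epithelium keratins of the intestinal lining, Krt7, Krt8, Krt18, Krt19, Krt20 and Krt23, were followed in mice that lacked GGTase-I in the epithelium and in their controls. The members were all probe sets (groups of short array probes summarised to 1 value) that the platform annotation assigns to 1 of these 6 gene symbols and to no other gene. This gave 8 of the 45101 probe sets on the array, 3 for Krt8 and 1 for each other gene, and 6 of the 8893 genes tested. The 3 GGTase-Iβ deficient mice carried floxed alleles of Pggt1b, the gene of the GGTase-I beta chain, together with Villin-CreERT2, a recombinase that tamoxifen activates under an intestinal epithelial promoter. The 3 floxed control mice carried the same floxed gene without the recombinase. Mice of both groups were of mixed 129/SV and C57BL/6 background, received 1 mg tamoxifen on each of 3 days, and gave intestinal epithelial cells on day 6 from the start of treatment. The recombinase and the deletion come together in this design and cannot be told apart. Arrays are labelled biological replicates and each is called a mouse here, since pooling is not mentioned. The sources used here give no age, sex, intestinal segment or scan batch.

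Keratins are the intermediate filament proteins of epithelia. They assemble only as pairs of an acidic type I chain (here Krt18, Krt19, Krt20 and Krt23) with a basic type II chain (here Krt7 and Krt8). In the gut, Krt8 pairs with Krt18, Krt19 and Krt20 in a dense web under the brush border that is anchored to desmosomes. Mice without Krt8 develop colitis. The comparison addresses whether expression of these genes differs once an enzyme that attaches lipid anchors to proteins is deleted.

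The 6 genes lie in the 2 keratin gene clusters of the mouse, which hold type II genes on chromosome 15 and type I genes on chromosome 11. Krt18 is the exception, a type I gene that stands beside Krt8 on chromosome 15, and Krt20 stands beside Krt23 on chromosome 11, per the gene table of assembly GRCm38.p6. Promoter sequences from RefSeq were found for 5 of the 6 genes, all but Krt19. Those of Krt7 and Krt18, the genes with the lowest p-values below, of Krt8, the neighbour of Krt18 with little difference, and of Krt20 are shown to let the start sites be compared. Each is the 250 bases before the gene's start on its own strand in GRCm38.p6, and capitals mark matches to the motifs named after them.
Krt7 (chr15:101412153-101412402, plus strand): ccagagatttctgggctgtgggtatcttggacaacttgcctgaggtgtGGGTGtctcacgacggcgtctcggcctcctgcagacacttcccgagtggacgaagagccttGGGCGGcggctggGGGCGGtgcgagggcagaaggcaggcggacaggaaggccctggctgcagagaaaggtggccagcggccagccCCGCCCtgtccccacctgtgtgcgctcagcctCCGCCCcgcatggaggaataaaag
Krt18 (chr15:102027966-102028215, plus strand): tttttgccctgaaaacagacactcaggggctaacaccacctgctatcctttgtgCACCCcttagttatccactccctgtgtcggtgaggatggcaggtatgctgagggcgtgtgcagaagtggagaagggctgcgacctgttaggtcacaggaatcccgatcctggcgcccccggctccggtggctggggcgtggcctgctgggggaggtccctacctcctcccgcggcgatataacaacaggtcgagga
Krt8 (chr15:102004343-102004592, minus strand): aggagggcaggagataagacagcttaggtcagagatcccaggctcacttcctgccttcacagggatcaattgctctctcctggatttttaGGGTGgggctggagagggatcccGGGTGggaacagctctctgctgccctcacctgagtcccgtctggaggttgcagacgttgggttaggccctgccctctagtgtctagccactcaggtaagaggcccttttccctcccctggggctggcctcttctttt
Krt20 (chr11:99438154-99438403, minus strand): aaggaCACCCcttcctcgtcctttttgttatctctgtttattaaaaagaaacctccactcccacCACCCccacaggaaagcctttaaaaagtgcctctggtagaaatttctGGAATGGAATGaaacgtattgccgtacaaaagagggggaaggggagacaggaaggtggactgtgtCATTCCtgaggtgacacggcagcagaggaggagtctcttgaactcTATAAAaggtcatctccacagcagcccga

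On both strands 5 motifs were searched, chosen after the sequences had been read: the TATA box TATAAA, the GC box GGGCGG bound by Sp1-type factors, the CACCC box bound by Kruppel-like factors, the AP-1 motif TGANTCA and the TEAD motif GGAATG. The Krt7 window held 4 GC boxes, the nearest one at position -24 from the gene's start, while those of Krt8, Krt18, Krt20 and Krt23 held 0. A GC box occurs in 32.7% of the 32851 windows of this length in the table. The Krt20 window held 3 TEAD motifs, 2 of them overlapping by a base, where 12.6% of all windows hold at least 1. It was also the window of the 5 with a TATA box (TATAAA, at position -29), a motif found in 12.4% of all windows. The CACCC box matched in Krt7 and Krt18 (1 each) and in Krt8 and Krt20 (2 each), against 52.0% of all windows, and AP-1 matched in 0 of the 5 against 6.75%. These matches describe letters, not bound sites.

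All 6 keratins averaged higher in the deficient mice than in the controls, and 0 of the 6 passed the threshold. Values are log2 expression, so a difference of 1 is a doubling, and the threshold was an adjusted p of 0.05 in limma over all 8893 genes, which 2.09% of genes passed (0.112% as higher and 1.98% as lower in deficient mice). The median log2 change of the 6 genes was 0.82, beside -0.04 for all genes tested. A higher mean was seen in 45.4% of all genes. At an unadjusted p under 0.05 in limma, 3 of the 6 keratins were higher (Krt7, Krt18 and Krt19), beside 5.60% of all genes. By the same limma p, 0 of the 6 were lower, beside 11.3% of all genes. The groups did not overlap for 3 of the 6 (Krt7, Krt18 and Krt23, all higher in deficient mice), beside 9.00% of all genes in that direction and 25.7% in either. In a preparation of mixed cells, more cells of a type and more RNA per cell cannot be told apart.

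**Figure D1:**
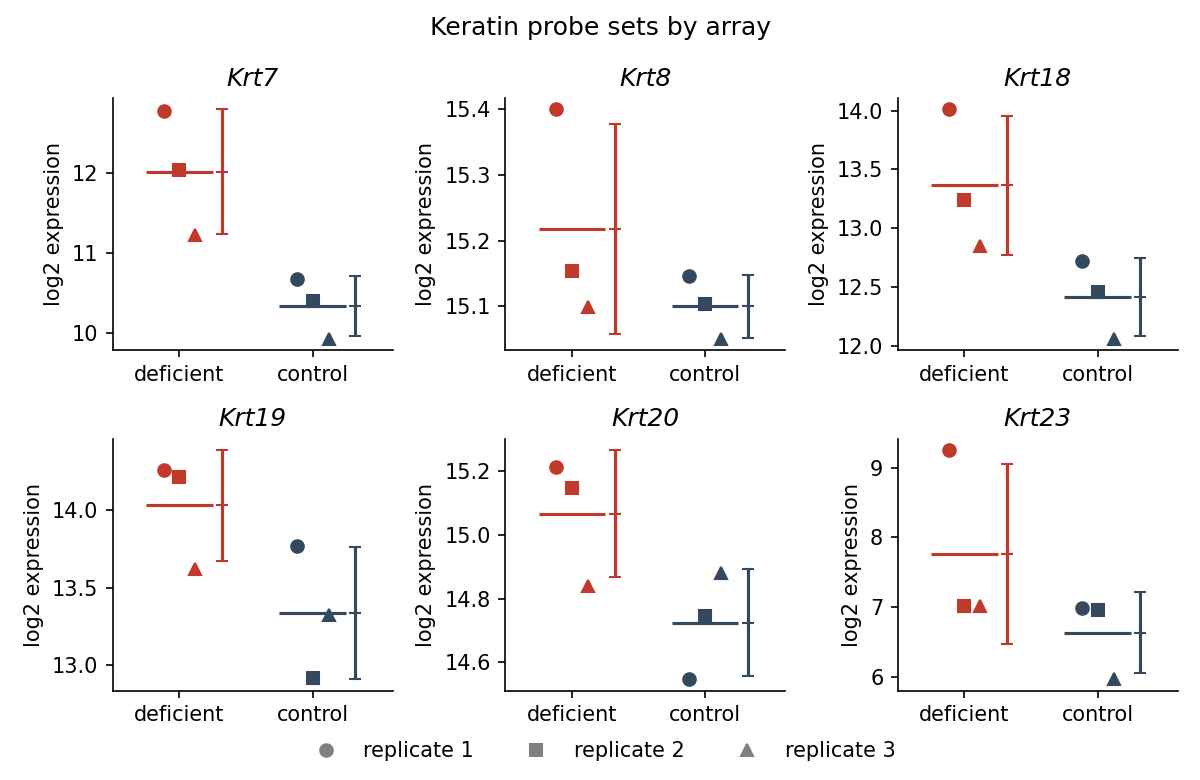
Log2 expression (vertical axis, a separate scale in each panel) of the probe set used for each keratin gene in 3 deficient mice (left, red) and 3 control mice (right, dark). Each symbol is 1 mouse, horizontal lines are group means and bars are SDs. The groups are apart for Krt7, Krt18 and Krt23 and overlap for Krt8, Krt19 and Krt20.

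Krt7, a type II keratin of ducts and of some intestinal epithelial cells, had the largest difference of the 6. It read 12.78, 12.05 and 11.22 in deficient replicates 1, 2 and 3, against 10.67, 10.40 and 9.93 in control replicates 1, 2 and 3. Every deficient mouse was above every control, by at least 0.55. The means were 12.02 ± 0.78 in deficient mice and 10.33 ± 0.38 in control mice (SD, n = 3 each), a log2 change of 1.68 ± 0.40 (SE). This is 3.21-fold, with a 95% interval from 1.65-fold to 6.25-fold (limma unadjusted p = 0.00434, adjusted p = 0.122). The change was larger than that of 99.7% of the genes tested. Without deficient replicate 3, the lowest deficient mouse, it was 2.08 and passed the threshold (limma adjusted p = 0.0357). It did not pass in the 5 fits that left out another array, with limma adjusted p from 0.176 to 0.34. An exact two-sided permutation test over the 6 mice gave p = 0.1, the smallest that 3 against 3 can give.

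Krt8, the main type II partner of the gut, differed little. The probe set used here read 15.40, 15.15 and 15.10 in deficient mice, against 15.15, 15.10 and 15.05 in control mice. One deficient mouse, replicate 1, stood above the rest, and the groups overlapped. The log2 change was 0.12 ± 0.16 (SE; limma adjusted p = 0.722), with a 95% interval from 0.837-fold to 1.41-fold, which leaves room for differences up to that size. Both other probe sets of Krt8 gave similar differences, at 0.10 and 0.12 in a fit over 16281 probe sets. In that fit 1.44% of probe sets passed and 0 of the 8 keratin probe sets did. One of the 3, with 14.72, 14.43 and 14.44 in deficient mice against 14.43, 14.41 and 14.39 in control mice, did not overlap, by a gap of 0.0031, beside 10.5% of all probe sets that did not overlap in this direction. Between 17 and 38 of the 45101 probe sets read higher than the Krt8 probe set on each array. Whether its signal was near saturation was not tested, since scanner intensities were not analysed here.

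Krt18, the type I chain that pairs with Krt8, lay higher in deficient mice without overlap. It read 14.01, 13.24 and 12.85 in deficient mice, against 12.72, 12.46 and 12.06 in control mice. The groups lay apart, with a gap of 0.12 between the lowest deficient and the highest control mouse. The log2 change was 0.95 ± 0.33 (SE), or 1.94-fold with a 95% interval from 1.13-fold to 3.32-fold (limma unadjusted p = 0.0233, adjusted p = 0.229). Without deficient replicate 1 the change was 0.63.

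Krt19, a small type I keratin found along crypts and villi, read 14.25, 14.21 and 13.62 in deficient mice, against 13.77, 12.92 and 13.32 in control mice. Deficient replicate 3 lay below control replicate 1, so the groups overlapped. The log2 change was 0.69 ± 0.28 (SE), with an interval from 1.02-fold to 2.56-fold (limma unadjusted p = 0.0437, adjusted p = 0.283).

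Krt20, a type I keratin of differentiated cells on the villus, read 15.21, 15.15 and 14.84 in deficient mice, against 14.55, 14.74 and 14.88 in control mice. Here control replicate 3 stood above the lowest deficient mouse. The log2 change was 0.34 ± 0.18 (SE; limma adjusted p = 0.378), with an interval from 0.942-fold to 1.71-fold. Between 28 and 93 of the 45101 probe sets read higher, so the same limit on bright probe sets was not tested here either.

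Krt23, a type I keratin that in mouse liver is known to appear under injury, gave the most uneven values. It read 9.25 in deficient replicate 1 but 7.02 and 7.01 in deficient replicates 2 and 3, against 6.99, 6.95 and 5.97 in control mice. The groups did not overlap, yet the gap between them was 0.028, and most of the difference came from a single mouse. The log2 change was 1.13 ± 0.64 (SE; limma adjusted p = 0.401), with an interval from 0.77-fold to 6.20-fold, and it was 0.38 without deficient replicate 1.

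Deficient replicate 1 had the highest value of all 6 mice for all 6 keratins. Deficient replicate 3 had the lowest value of the 3 deficient mice for all 6. In control mice too, Krt7, Krt8, Krt18 and Krt23 fell from replicate 1 to replicate 3, while Krt19 and Krt20 did not follow that order. The 6 values come from the same RNA and array and are not independent. Without deficient replicate 1, all 6 differences stayed above 0, from 0.03 for Krt8 to 1.30 for Krt7, with limma adjusted p of 0.178 for Krt7.

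**Figure D2:**
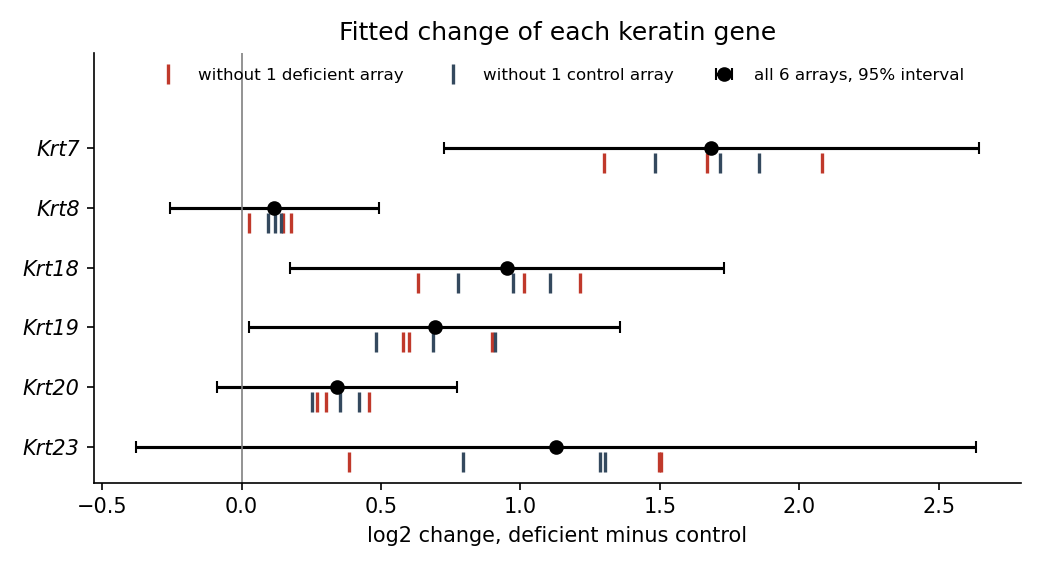
Log2 change, deficient minus control (horizontal axis), of the 6 keratin genes (vertical axis). Black points and bars are the fit to all 6 arrays with its 95% interval, and ticks beneath are the fits that leave out 1 deficient array (red) or 1 control array (dark). The ticks of Krt23 reach from 0.38 to 1.50, the widest spread of the 6, and those of Krt8 stay between 0.03 and 0.18.

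**Figure D3:**
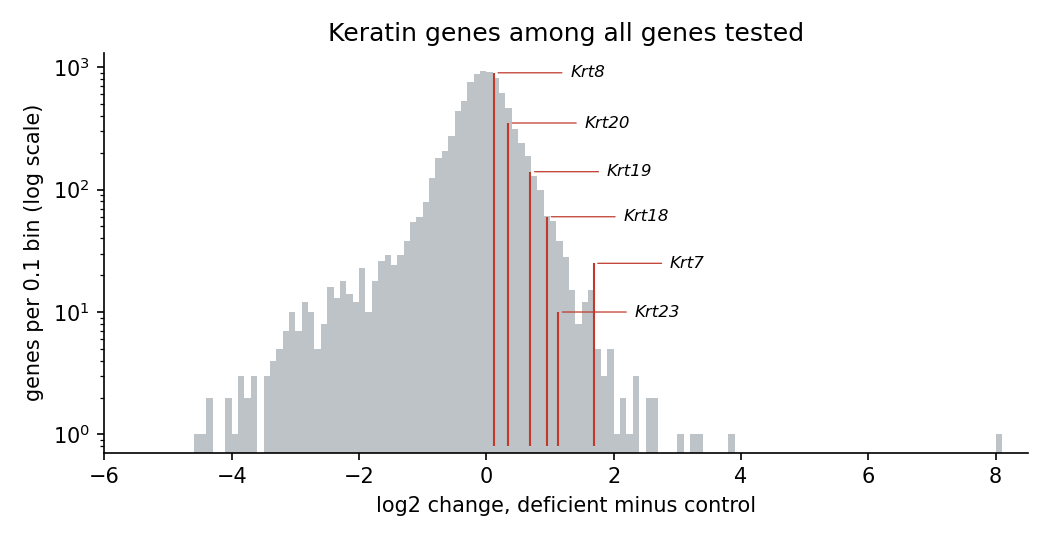
Number of genes (vertical axis, log scale) by log2 change, deficient minus control, in bins of 0.1 (horizontal axis), for the 8893 genes tested. Red lines mark the 6 keratins, whose height carries no value. Krt8 lies near the centre of all genes and Krt7, at 1.68, in the right tail.

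Because type I and type II chains pair, each type I keratin was also set against Krt8 within the same array. Krt7, a type II chain like Krt8 and so no partner of it, was set against Krt8 in the same way. Values are log2 differences relative to the control mean. Since saturation of the Krt8 probe set was not tested, the size of these differences depends on its signal being in range. For Krt7 this difference was 2.15, 1.66 and 0.89 in deficient mice, against 0.29, 0.06 and -0.35 in control mice. For Krt18, the usual partner, it was 1.30, 0.78 and 0.43 in deficient mice, against 0.26, 0.04 and -0.30 in control mice. Both lay apart, as did Krt23 with 2.32, 0.34 and 0.38 in deficient mice against 0.31, 0.31 and -0.62 in control mice. These genes also lay apart on their own, as did 9.00% of all genes in that direction, so this is no separate result. The share of all genes that lie apart when set against Krt8 was not computed. The mean differences were 1.57 for Krt7, 0.84 for Krt18, 1.01 for Krt23, 0.57 for Krt19 and 0.22 for Krt20, and the last 2 overlapped. Of the 5 comparisons, exact two-sided permutation tests gave p = 0.1 for Krt7, Krt18 and Krt23, p = 0.2 for Krt19 and p = 0.3 for Krt20. After adjustment over the 5 comparisons the exact p was 0.167 for the first 3 genes, 0.25 for Krt19 and 0.3 for Krt20, so the differences against Krt8 did not pass in a design whose smallest p is 0.1.

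**Figure D4:**
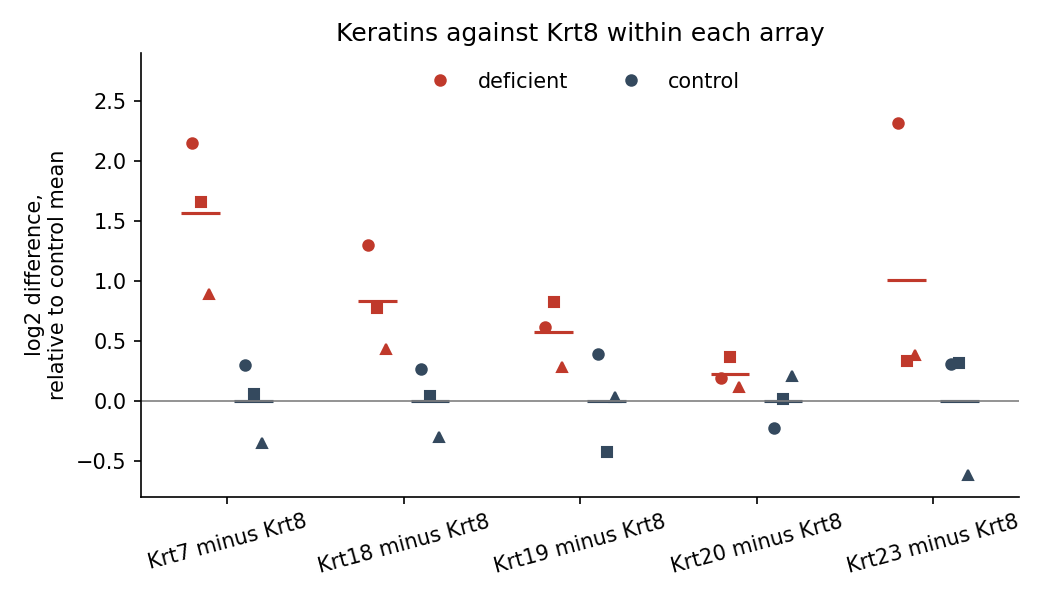
Log2 difference between each keratin and Krt8 within an array, relative to the mean of the control mice (vertical axis), for 5 keratins (horizontal axis). Points are single mice, 3 deficient (left, red) and 3 control (right, dark), with circles, squares and triangles for replicates 1, 2 and 3, and lines are group means. The groups do not overlap for Krt7, Krt18 and Krt23, and they do for Krt19 and Krt20.

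The other keratins of the array gave little signal. Of 42 further keratin genes, 37 lay at or below the level 5 used as filter on all 6 arrays, with 3.42 as their highest value. They include Krt14 and Krt13 of stratified epithelia. The genes above the filter on at least 3 arrays were Krt10, Krt12 and Krt42, all type I, of which 0 passed (0 at an unadjusted p under 0.05 in limma). Krt12, a keratin of the cornea, was at -0.69 ± 0.38 (SE; limma adjusted p = 0.395), and Krt10, of the upper epidermis, at -0.25 ± 0.18 (SE; limma adjusted p = 0.501). Krt36, named after its values were seen, read 5.06 in deficient replicate 1 but 3.08 and 3.21 in the other deficient mice, against 3.19, 3.10 and 3.10 in control mice. It was above the filter on that 1 array only.

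Of the other intermediate filament genes 4 of 13 were tested, and 1 passed as lower and 0 as higher. This was Lmnb2, the nuclear lamina protein lamin B2, at 5.23, 5.37 and 5.47 in deficient mice against 6.35, 6.33 and 6.12 in control mice. Its log2 change was -0.91 ± 0.16 (SE; limma adjusted p = 0.039), and it did not pass when any 1 array was left out (adjusted p from 0.0671 to 0.163). Vim, the filament protein of mesenchymal cells and leukocytes, was at -1.07 (limma adjusted p = 0.145).

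Genes that tie keratin filaments to junctions did not pass. The list of linkers and desmosome genes had 17 of 18 members tested, with 0 called in either direction by limma and 1 in each direction at an unadjusted p under 0.05. By mean, 12 were higher and 5 lower in deficient mice, with a median log2 change of 0.24. Pkp2, a plakophilin of the desmosomal plaque, read 12.08, 11.19 and 11.29 in deficient mice, against 10.77, 10.67 and 10.97 in control mice (log2 change 0.72 ± 0.26 SE, limma adjusted p = 0.248). Eppk1, epiplakin, which binds keratin filaments, ran the other way, at 10.26, 9.92 and 9.83 in deficient mice against 11.22, 10.35 and 10.41 in control mice (log2 change -0.66 ± 0.27 SE, limma adjusted p = 0.293). Plec, the large linker plectin, was at 0.07.

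**Figure D5:**
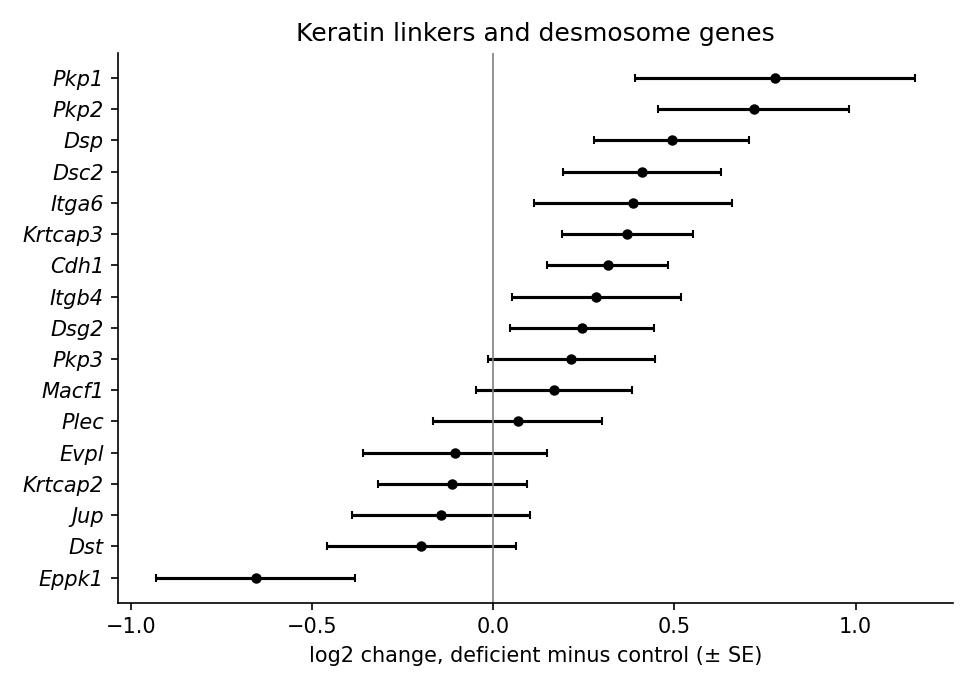
Log2 change, deficient minus control, with its standard error (horizontal axis) for the 17 tested genes of the keratin linker and desmosome list (vertical axis), ordered by change. Most points lie between 0 and 0.8, Eppk1 lies at -0.66, and 0 of the 17 passed the threshold.

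Genes whose products bind, modify or turn over keratins likewise had 0 called of 21 tested, with 1 in each direction at an unadjusted p under 0.05 and a median of 0.16. Tradd, a death receptor adaptor that binds Krt18, was at 0.73 ± 0.22 (SE; limma adjusted p = 0.182), and the kinase Prkca was at -0.45 ± 0.18 (SE; limma adjusted p = 0.279). Among 15 tested transcription factors of gut epithelium and keratin genes, 1 passed as lower and 0 as higher, beside 1 lower and 2 higher at an unadjusted p under 0.05 in limma, with a median of -0.06. This was Ets1, a factor also abundant in lymphocytes, at 7.21, 6.84 and 7.07 in deficient mice against 9.61, 9.21 and 9.23 in control mice (log2 change -2.31 ± 0.19 SE, limma adjusted p = 0.00183). Cdx2, a factor of intestinal identity, was at -0.02.

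For each keratin, the 3 genes with the most similar pattern were taken by Pearson correlation over the 6 arrays among 2115 genes with an SD of at least 0.5. With so many candidates and 6 points that share the group difference, high values describe likeness and carry no test. Krt7 was most like S100a16, a calcium-binding protein, at r = 0.998, then Anxa5 at 0.990 and Anxa3 at 0.984, which are annexins that bind membranes with calcium. S100a16 read 11.93, 11.16 and 10.49 in deficient mice, against 9.92, 9.65 and 9.36 in control mice, in the same order of mice as Krt7. Krt18 was most like Bok, of the BCL2 family, at 0.990, Anxa5 again at 0.985 and the heparan sulfate enzyme Hs3st1 at 0.983. Krt19 was nearest to Prdm15, Kcnn4 and Dhx32, from 0.994 to 0.987, and Krt8 to Glul, Pyroxd1 and Shisa2, from 0.997 to 0.989. Krt20 was nearest to Rab31, a trafficking GTPase, at 0.978, the formin Daam1 at 0.972 and Oasl1 at 0.963. Krt23 was nearest to Fnip2, Plekhg3 and Clu, from 0.998 to 0.985. Limma adjusted p of these genes was between 0.118 (S100a16 and Rab31) and 0.535 (Plekhg3), so 0 of them passed.

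T cell markers moved with the groups. Of the markers of T cells and of lymphocytes within the epithelium, 11 of 13 were called lower by limma, beside 1.98% of all genes. The count was between 4 and 12 when 1 array was left out, and 3 with no filter. It was 5 without deficient replicate 2, and 4, 6 and 4 without control replicates 1, 2 and 3. Cd3d, Il2rb and Cd7 were above the filter in the 3 control mice only, so they entered the test through the group where they are high. Their calls are among the 11 and carry no weight here. Of the markers above the filter on all 6 arrays, Ptprc, Coro1a, Ccl5, Gzmb and Itgae were called lower. Gzma was not (limma adjusted p = 0.0507). The mean level of the list, with Cd3d, Il2rb and Cd7 included, was taken relative to the control mean. It was -4.03, -3.28 and -2.55 in deficient replicates 1, 2 and 3, against 0.09, -0.03 and -0.06 in control mice. The distance between the groups in this mean rests in part on Cd3d, Il2rb and Cd7 and carries no weight here. The keratin mean followed the opposite order of deficient mice, at 1.39, 0.71 and 0.35, against 0.22, 0.00 and -0.22 in control mice. In control mice the order was not opposite, as both means fell from replicate 1 to replicate 3. A link between the keratin mean and the T cell list was not tested. In the stromal list 4 of 9 genes were tested and 0 passed in limma. At an unadjusted p under 0.05 in limma 3 were lower (Col1a2, Col3a1 and Vim), beside 11.3% of all genes. Vim is the filament gene given above, which leukocytes express too. Acta2, the other gene tested, was at 0.06. The mean level of the stromal list was -1.55, -1.17 and -0.61 in deficient mice against 0.58, -0.26 and -0.32 in control mice. Pecam1 and Cdh5 of endothelium and Myh11 of muscle stayed below 2.41 on all arrays. The part of these cells in the keratin differences was not tested.

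Markers of tissues that are rich in keratins were low or uneven. Of the squamous list 1 of 9 was tested, Sprr1a, which read 10.52, 8.18 and 8.25 in deficient mice against 7.72, 7.31 and 8.22 in control mice. Trp63 of basal squamous cells stayed at or below 3.13, while Krt5 of the same list lay between 4.92 and 5.36. Of the mesothelial list 1 of 6 was tested, Upk1b, at 6.91, 6.85 and 7.22 in deficient mice against 7.36, 5.42 and 7.70 in control mice, and Msln stayed at or below 3.78. Villus enterocyte markers had 12 of 14 tested and 0 called (1 lower at an unadjusted p under 0.05 in limma), 6 higher and 6 lower by mean. The labelled epithelium was checked by level: Vil1, villin of the brush border, averaged 14.24 ± 0.28 in deficient mice and 14.51 ± 0.12 in control mice (SD, n = 3 each). Crypt and proliferation markers had a median of 0.68 over 7 genes with 0 called (0 at an unadjusted p under 0.05 in limma). Their mean level was 0.41, 0.89 and 0.80 in deficient mice, against 1.15, -1.34 and 0.19 in control mice, so control replicate 2 stood lowest. The lists for goblet (8 tested), Paneth (5), enteroendocrine (7), tuft (1), proximal (5) and colon (5) cells or segments had 0 called by limma, and at an unadjusted p under 0.05 they had from 0 to 2 each. Segment lists were uneven across arrays. The colon list averaged 1.09, -0.50 and 0.10 in deficient replicates 1, 2 and 3, against -0.07, -0.10 and 0.17 in control mice. The proximal list averaged -0.33, -0.26 and 0.18, against -0.26, 0.55 and -0.28. The ileum list ran from -1.15 to 0.88, both in control mice. Whether segment differed between the arrays was not tested. The ileum list had 1 of 5 called lower, Cubn, an uptake receptor of the brush border. A list of regeneration genes, drawn up with earlier results known, had 8 of 12 tested. Anxa10 and Ly6d of that list were above the filter in the deficient mice only, so they entered the test through the group where they are high and their calls are not counted here. The other tested genes of the list were not called, with log2 changes from 0.28 (Ereg) to 1.62 (Reg3g). Il33 was at 1.53 (limma unadjusted p = 0.0273, adjusted p = 0.242). As the list was drawn up with earlier results known, their shared direction carries no weight.

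The arrays correlated at 0.953 to 0.980 within groups and at 0.903 to 0.969 between them over the genes tested. The deleted gene gave no check of the labels: the Pggt1b probe set used here read 9.75, 8.88 and 8.83 in deficient mice, against 9.30, 9.55 and 9.33 in control mice (limma adjusted p = 0.678). The log2 changes of its other 3 probe sets were 0.15, -0.08 and 0.01. Deficient replicate 1, which led all 6 keratins, had the highest value of the 6 arrays on that probe set and on another, at 6.51 against 5.72 to 6.26 in control mice. The sources used here do not say where its probes lie relative to the deleted part. Directions therefore rest on the labels.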

How the data were processed

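Total RNA of intestinal epithelial cells was hybridised to 6 Affymetrix arrays, 1 per biological replicate. The deposited values are log2 expression, 1 per probe set and array; per the submitters' processing notes, Partek 6.5 and the GCRMA method (background correction, normalization and summary) were used. That the scale is log2 was read from the range of the values (0.42 to 16.4, array medians 3.26 to 3.33). GCRMA gathers dim probe sets near a floor. Precision is limited by the number of arrays.

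Of 45101 probe sets, 64 controls were left out and 34945 had 1 gene symbol. For a gene with several probe sets the one that averaged highest over the 6 arrays was used, giving 18193 genes, of which the 8893 above 5 on at least 3 arrays were tested. All 6 keratins passed this filter. Groups were compared with limma 3.58.1 (R 4.3.3; lmFit, eBayes, no covariate, two-sided), with Benjamini-Hochberg adjustment over all genes, and tested on simulated data. Affymetrix marks with x the probe sets whose probes can match other genes, which holds for 2 of the 3 Krt8 probe sets, among them the one used, and with a those that match several transcripts of a gene, as for Krt7.

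Members and lists were chosen with earlier results of these data known. Named outside the members were, per list of other filament genes, linkers, modifiers and transcription factors, every called gene or the 2 with the lowest p, and the 3 genes most like each keratin. Other names were chosen after their values were seen. The labels name no pairs, so the fit has no block. Over the genes tested, deviations of arrays with the same replicate number correlated at 0.05, -0.29 and 0.00. Whether arrays with the same number shared their handling was not tested.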

Additional observations from a re-analysis of the deposited data

How the results depend on the processing

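Of 16 alternatives, those that change moderation, filter or replicate block cannot move a log2 change, and the probe set choice could move only that of Krt8. Under array weights, both other normalizations and each left-out array, which can move it, the 6 differences stayed above 0. Krt18, Krt19, Krt20, Krt23 and Krt8 did not pass in any of the 16. Krt7 passed in 3: with array weights (change 1.69, limma adjusted p = 0.0477), with the replicate number as a block (1.68, 0.0478) and without deficient replicate 3, so that 1 keratin was called higher in each, against 0 otherwise; 0 were called lower in all. With the block the SE of the Krt7 change was 0.235, against 0.405 without it. The labels name no pairs on which to base a block, and the cause of these shifts was not tested. Leaving out 1 array gave 1.30 to 2.08 for Krt7, 0.03 to 0.18 for Krt8, 0.63 to 1.21 for Krt18, 0.48 to 0.91 for Krt19, 0.25 to 0.46 for Krt20 and 0.38 to 1.50 for Krt23, and between 0 and 1 keratins called higher. One of the 3 Krt8 probe sets turned to -0.0094 without deficient replicate 1 and reached 0.16 with another array left out. The 5 differences against Krt8 were recomputed under 7 alternatives, quantile normalization and leaving out each array, and stayed above 0. That of Krt23 was 0.36 without deficient replicate 1, that of Krt20 0.11 without control replicate 1 and that of Krt19 0.36 without control replicate 2. Lmnb2 lost its call with trended and robust moderation (adjusted p = 0.0781), median centring (0.0587) and the replicate block (0.163), and had no value where its probe sets were averaged. Alternatives for Lmnb2, Ets1 and the T cell list were chosen after seeing the data; Ets1 stayed called lower in all 16. T cell list calls were 3 without a filter and 7 with the block, against 11. All genes called numbered 186, against 293 with array weights, 85 without a filter, 117 with probe sets averaged and 93 to 239 when 1 array was left out (101 without deficient replicate 2, and 93 and 104 without control replicates 1 and 3). Whether the bright Krt8 and Krt20 probe sets were near saturation was not tested.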
